A study of Mus musculus with 10 samples.

Results

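*Gpx1*, *Selenow* and *Selenoh* encode 3 selenoproteins, and they were 3 of the 27024 genes with a row in a bulk RNA-seq table of bEnd.3 cells. bEnd.3 is an immortalised brain endothelial cell line from mouse, here of WT genotype and cultured in medium with serum. The cells received either saline (5 samples, replicates 1, 2, 3, 4 and 5) or 5 nM StcE (5 samples, replicates 1, 2, 3, 5 and 6), and all were collected after 16 h. StcE is a bacterial protease, a mucinase, that cleaves proteins carrying dense mucin-type O-glycans. The comparison asked what transcripts changed when such mucins were removed from brain endothelial cells, and the control was vehicle, with no group given an inactive enzyme analysed here. All samples came from 1 cell line, and no label says whether the samples of a group were separate cultures, so each p-value measures only the spread between these samples.

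The members were chosen by name as selenoproteins whose mRNA is known to fall early when selenium is short, and they were selected on this same contrast, with their decrease already known. Their difference between saline and StcE is therefore a description and carries no test. Tests are given only for other genes and for values other than the members' difference. The gene lists were also drawn up with earlier results of these data known, so their p-values and counts are not independent of those results.

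A selenoprotein contains selenocysteine, an amino acid with selenium in place of the sulfur of cysteine, and the ribosome inserts it at a UGA codon that would otherwise end translation. Insertion needs a dedicated tRNA, an elongation factor and a hairpin in the 3′ end of the mRNA, called the SECIS element. When selenium is scarce, cells make some selenoproteins at the expense of others, and the mRNAs of the less favoured ones can be degraded by nonsense-mediated decay, the pathway that removes transcripts with a stop codon ahead of an exon junction. *Gpx1* encodes the abundant cytosolic glutathione peroxidase, which reduces hydrogen peroxide. *Selenow* and *Selenoh* encode small selenoproteins with a thioredoxin-like fold, the latter found in the nucleus.

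The feature that the 3 genes share by definition is the UGA codon, and its surroundings are printed for the members and for *Gpx4* and *Sephs2*, which had the level nearest to *Selenow* and the only increase among the selenoproteins tested, respectively. Each line gives 30 bases of the coding strand from the GENCODE vM21 transcripts of GRCm38, 5′ to 3′, with the UGA codon in capitals as TGA.
Gpx1: gtcgcgtctctcTGAggcaccacgatccgg
Selenow: tattgtggagctTGAggctataagcccaag
Selenoh: cattgtacgagcTGAcgcgtgtacggccgc
Gpx4: gtggcctcgcaaTGAggcaaaactgacgta
Sephs2: ggcatgaagggcTGAggctgcaaggtcccc

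In *Gpx1* the UGA lies at chr9:108339451-108339453 on the plus strand, in exon 1 of 2, and is codon 47 of 201. In *Selenow* it lies at chr7:15920464-15920466 on the minus strand, in exon 2 of 6, and is codon 13 of 88. In *Selenoh* it lies at chr2:84670381-84670383 on the minus strand, in exon 2 of 3, and is codon 38 of 116. The codon 3 places before UGA was TGT, for cysteine, in *Selenow* and *Selenoh*, which gives the cysteine and selenocysteine pair of the thioredoxin-like fold, and was GCG in *Gpx1*. All 3 UGA codons stood well inside the reading frame and upstream of the last exon junction, by 105 bases in *Gpx1*, 243 bases in *Selenow* and 136 bases in *Selenoh*.

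Levels are given as FPKM, fragments per kilobase of exon scaled to sample depth, which allows levels of different genes to be compared per length. The samples held 21859342 to 33140289 recovered fragments, with no difference in total between the groups (exact two-sided permutation test, p = 0.278). Behind each sample's value lay 5748 to 14409 fragments for *Gpx1*, 1942 to 5094 for *Selenow* and 816 to 2317 for *Selenoh*. Counting error, which covers only the sampling of fragments, averaged 0.9% of the level for *Gpx1*, 1.52% for *Selenow* and 2.22% for *Selenoh* in saline samples, against a spread between samples (SD as a percentage of the mean) of 2.39%, 3.19% and 5.79%. In StcE samples it averaged 1.20%, 2.12% and 3.23%, against a spread of 1.998%, 6.02% and 2.55%. The spread of *Selenoh* between StcE samples was thus no larger than its counting error.

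*Gpx1* (chr9:108338903-108340343, plus strand) had 328.8, 327.5, 342.9, 325.3 and 339.9 FPKM in saline replicates 1 to 5. It had 169.5, 162.4, 171.2, 166.6 and 167.0 FPKM in StcE replicates 1, 2, 3, 5 and 6. The groups lay far apart, and the highest StcE sample was well under the lowest saline sample. The mean was 332.9 ± 7.95 FPKM with saline and 167.4 ± 3.34 FPKM with StcE (SD, n = 5 each), so StcE samples held 50.3% of the saline level.

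*Selenow* (chr7:15917208-15922402, minus strand) had 227.6, 239.4, 218.9, 229.2 and 229.8 FPKM in the saline samples, in the same order of replicates. In the StcE samples it had 112.2, 96.9, 111.9, 103.2 and 106.1 FPKM. The groups did not overlap, and StcE replicate 2 was the lowest of all. The mean was 229.0 ± 7.30 FPKM with saline and 106.1 ± 6.39 FPKM with StcE (SD, n = 5 each), or 46.3% of the saline level.

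*Selenoh* (chr2:84669215-84670770, minus strand) was the least abundant of the 3 and differed most. It had 67.4, 71.2, 69.3, 66.0 and 76.4 FPKM in the saline samples and 30.7, 29.8, 29.1, 28.8 and 29.2 FPKM in the StcE samples. The StcE samples were close together, the saline samples were more spread, and the groups did not overlap. The mean was 70.0 ± 4.05 FPKM with saline and 29.5 ± 0.752 FPKM with StcE (SD, n = 5 each), or 42.1% of the saline level. In bulk RNA, fewer cells that express a gene and less of its RNA per cell cannot be told apart.

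**Figure D1:**
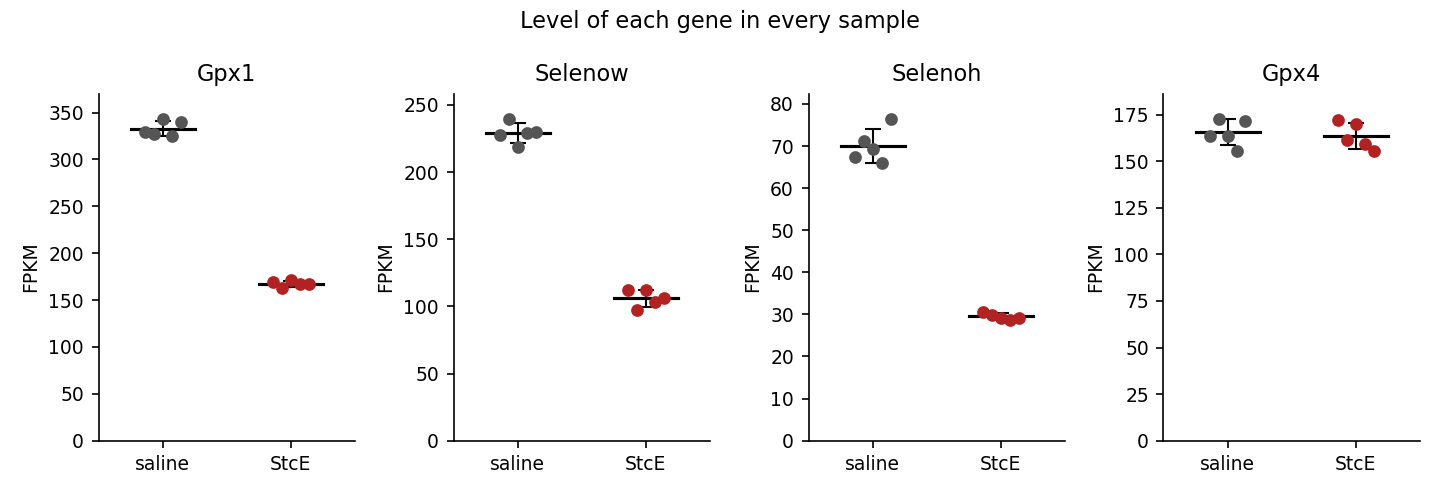
FPKM of *Gpx1*, *Selenow*, *Selenoh* and, for comparison, *Gpx4* in each sample (points), with the group mean (line) and SD (bars, n = 5), on axes that start at 0. For the first 3 genes every StcE point lies below every saline point (*Gpx1* 162.4 to 171.2 FPKM against 325.3 to 342.9 FPKM), whereas for *Gpx4* the groups overlap.

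The difference of the mean log2(FPKM + 1), StcE minus saline, was -0.99 (SE 0.023) for *Gpx1*, -1.10 (SE 0.040) for *Selenow* and -1.22 (SE 0.037) for *Selenoh*. The pseudocount of 1 FPKM slightly understates the change of low genes, and at these levels it mattered little. Of the 11062 genes with a mean of at least 1 FPKM, *Selenoh*, *Selenow* and *Gpx1* had the 2nd, 3rd and 4th lowest differences. All 3 members passed the call of a decrease (limma, Benjamini-Hochberg adjusted p under 0.05) that 6.41% of the genes tested passed, and for all 3 the groups were fully separated with StcE lower, as for 5.8% of the genes tested. Nothing is read from these counts, since this contrast chose the genes.

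The place of the members among abundant transcripts shifted accordingly. By mean FPKM, *Gpx1* stood at place 98 of 11062 genes in saline samples and at 268 in StcE samples. *Selenow* moved from place 183 to 445 and *Selenoh* from 719 to 1971. Among the 20 selenoprotein genes with a value, *Gpx1* was the most abundant in both groups. *Selenow* moved from place 2 with saline to place 3 with StcE, where *Gpx4* at 163.5 ± 7.18 FPKM was above it (SD, n = 5), and *Selenoh* moved from place 7 to place 9.

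The difference was not of exactly equal size in the 3 genes. The ratio of *Gpx1* to *Selenoh* FPKM was 4.76 ± 0.224 with saline and 5.68 ± 0.183 with StcE (SD, n = 5 each), and the groups did not overlap, with 4.95 as the highest saline ratio and 5.45 as the lowest with StcE. The ratio of *Gpx1* to *Selenow* was 1.46 ± 0.0742 with saline and 1.58 ± 0.0662 with StcE, and the groups overlapped. The ratio of *Selenow* to *Selenoh* was 3.28 ± 0.189 and 3.60 ± 0.217, also with overlap. These ratios come from the contrast that chose the genes and are given without a test.

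Whether the 3 transcripts varied together within a group was a separate question that the choice did not use. Across all samples the groups form separate clusters, so no pooled correlation is given, and each sample's log2(FPKM + 1) was set against the mean of its own group. Over the 10 deviations, *Gpx1* and *Selenow* had Pearson's r = 0.328 (exact permutation within groups, two-sided, p = 0.362, adjusted over 3 pairs p = 0.543) and Spearman's rho = 0.321 (permutation p = 0.391, adjusted p = 0.492). For each pair, r was also taken without the 2 samples farthest from the median, picked by the first gene named alone. Without those of *Gpx1*, saline replicate 3 and StcE replicate 2, r was 0.361. Without StcE replicate 2 alone it was -0.095.

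*Gpx1* and *Selenoh* had r = 0.399 (permutation p = 0.338, adjusted p = 0.543) and rho = 0.273 (permutation p = 0.492, adjusted p = 0.492). Without the same 2 samples, again picked by *Gpx1* and not by *Selenoh*, r was 0.768 (permutation p = 0.0625), so this value depends on that choice of gene. *Selenow* and *Selenoh* had r = 0.166 (permutation p = 0.568, adjusted p = 0.568) and rho = 0.345 (permutation p = 0.302, adjusted p = 0.492), and r = 0.210 without StcE replicates 1 and 2. When each sample was left out in turn, r ranged from -0.095 to 0.667 for *Gpx1* and *Selenow*, from 0.173 to 0.536 for *Gpx1* and *Selenoh* (lowest without saline replicate 5), and from 0.0065 to 0.337 for *Selenow* and *Selenoh* (lowest without StcE replicate 1). With the values scaled by total fragments, r was 0.526, 0.569 and 0.336 for the same pairs.

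The combined values joined groups with different patterns. Within the 5 saline and the 5 StcE samples, r was -0.638 and 0.975 for *Gpx1* and *Selenow*, 0.568 and 0.00032 for *Gpx1* and *Selenoh*, and 0.235 and 0.185 for *Selenow* and *Selenoh*. With 5 samples in a group these values are a description without a test, and the difference between the groups was not tested. No pair passed the threshold over the 10 samples. The deviations themselves were small, and the largest were those of *Selenow* in StcE replicate 2, at -0.126 on the log2 scale, and of *Selenoh* in saline replicate 5, at 0.125.

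**Figure D2:**
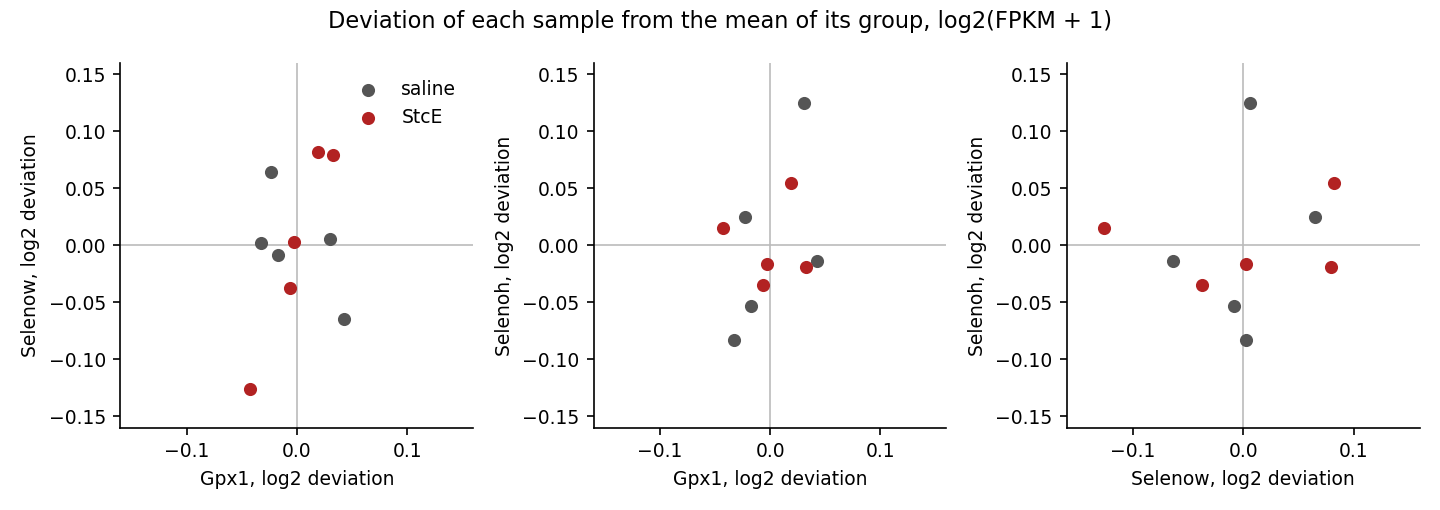
Deviation of each sample from the mean of its group, on the log2(FPKM + 1) scale, for the 3 pairs of members (grey points saline, red points StcE, n = 5 each). Over both groups the points scatter around 0 (r = 0.328 for *Gpx1* and *Selenow*, 0.399 for *Gpx1* and *Selenoh*, 0.166 for *Selenow* and *Selenoh*). The red points of *Gpx1* and *Selenow* alone lie close to a line (r = 0.975), unlike the grey points (r = -0.638), a description without a test.

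The 3 members made up most of the selenoprotein transcripts of untreated cells. Of the summed FPKM of 20 selenoprotein genes, they held 53.0%, 53.0%, 53.2%, 53.4% and 53.2% in saline replicates 1 to 5. They held 35.7%, 34.6%, 36.2%, 35.7% and 36.6% in the StcE samples. The share was thus nearly constant between saline samples and lower in every StcE sample. The sum over the 3 members was 631.9 ± 10.5 FPKM with saline and 302.9 ± 9.81 FPKM with StcE (SD, n = 5 each).

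The sum over the 17 other selenoprotein genes leaves out the members, which were chosen with their decrease on this contrast known. A test of this remainder is therefore not independent of that choice. The sum was 556.8 ± 11.2 FPKM with saline and 544.4 ± 14.5 FPKM with StcE (SD, n = 5 each). The difference of -12.4 FPKM, or -2.22%, did not pass the threshold (exact two-sided permutation test over 252 arrangements, p = 0.183, where the smallest possible p is 0.00794).

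**Figure D3:**
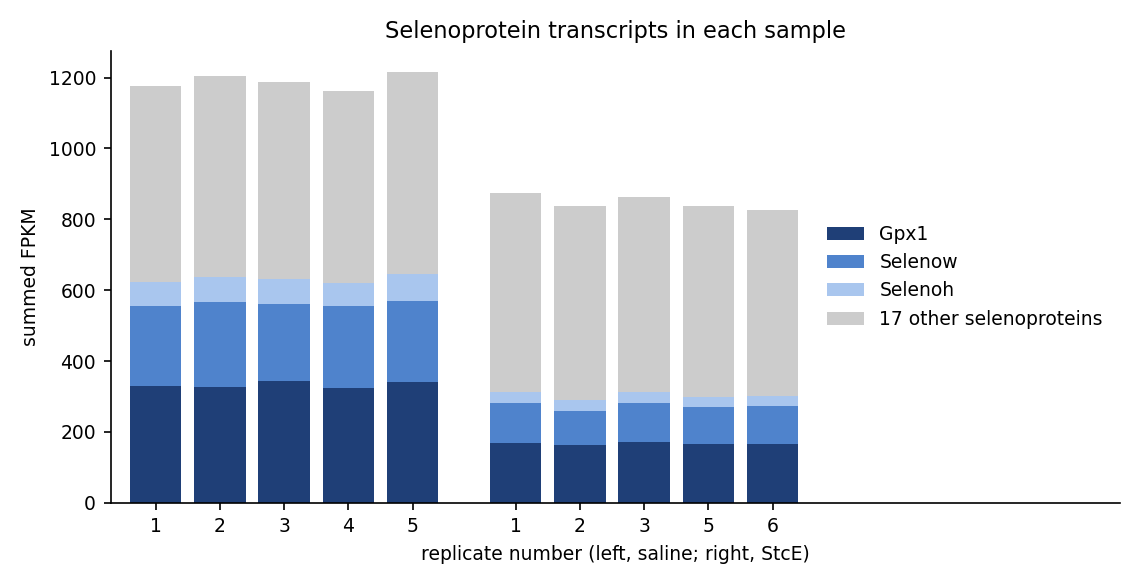
Summed FPKM of selenoprotein transcripts in each sample, stacked as *Gpx1*, *Selenow*, *Selenoh* and the 17 other genes. The grey part keeps a height of 523.4 to 569.0 FPKM in all samples, while the members' part is 620.4 to 646.0 FPKM with saline and 289.2 to 312.4 FPKM with StcE.

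Of 24 mouse selenoprotein genes, 21 are not members. *Gpx2*, *Dio1*, *Dio3* and *Selenov* were not analysed here, *Dio2* was below the minimum of 1 FPKM, and 16 were tested. Of these 16, 4 were lower with StcE and 1 was higher by limma, against 6.41% lower and 5.52% higher of all genes tested. Their median difference was -0.02 on the log2 scale, beside -0.00066 over all genes tested, and the lowest, that of *Selenop*, was -0.35, much closer to 0 than those of the members.

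Among the glutathione peroxidases, *Gpx4*, which reduces lipid peroxides in membranes, had 163.7, 172.5, 163.6, 155.7 and 171.8 FPKM with saline and 171.9, 161.2, 170.1, 159.2 and 155.2 FPKM with StcE. The groups overlapped fully. The log2 difference was -0.02 with a 95% interval of -0.10 to 0.06 (limma adjusted p = 0.802). *Gpx3*, the secreted plasma enzyme, was barely expressed, at 1.16 ± 0.390 and 0.983 ± 0.264 FPKM (SD, n = 5 each, limma adjusted p = 0.599).

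Among the thioredoxin reductases, which recycle thioredoxin, the cytosolic *Txnrd1* decreased from 74.9 ± 0.445 to 67.4 ± 1.92 FPKM (SD, n = 5 each), a log2 difference of -0.15 (SE 0.022, limma adjusted p = 0.00160). Every StcE sample was below every saline sample. The mitochondrial *Txnrd2* (log2 difference 0.06) and *Txnrd3* (0.09) did not pass the threshold.

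Among the selenoproteins of the endoplasmic reticulum, *Selenon*, which is linked to calcium handling, decreased from 31.0 ± 0.590 to 25.5 ± 1.35 FPKM (log2 difference -0.27, SE 0.034, limma adjusted p = 0.000456). *Selenom* decreased from 35.4 ± 1.04 to 30.5 ± 1.52 FPKM (log2 difference -0.21, SE 0.035, limma adjusted p = 0.00309). For both genes the groups did not overlap (SD, n = 5 each). *Selenot* had a log2 difference of -0.07 (limma adjusted p = 0.0786), *Selenof* -0.03, *Selenok* 0.03 and *Selenos* 0.06, and none of these passed.

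*Selenop*, which encodes the secreted carrier of selenium, decreased from 6.32 ± 0.409 to 4.73 ± 0.180 FPKM (SD, n = 5 each, log2 difference -0.35, SE 0.041, limma adjusted p = 0.000308). The other single-function selenoproteins did not pass. These were *Msrb1*, a methionine sulfoxide reductase, with a log2 difference of -0.03, *Selenoi*, an enzyme of phospholipid synthesis, with 0.03, and the mitochondrial *Selenoo* with 0.06.

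*Sephs2* was the one selenoprotein gene that increased. It encodes the enzyme that makes selenophosphate, the selenium donor for selenocysteine, and is itself a selenoprotein. It had 19.7, 19.5, 19.1, 20.1 and 20.6 FPKM in the saline samples and 34.1, 32.7, 31.5, 32.7 and 31.3 FPKM in the StcE samples. Every StcE sample was above every saline sample, which held for 4.85% of all genes tested. The log2 difference was 0.68 (SE 0.029, limma adjusted p = 3.2e-08). Its level thereby passed that of *Selenoh*, from 19.8 against 70.0 FPKM with saline to 32.4 against 29.5 FPKM with StcE.

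**Figure D4:**
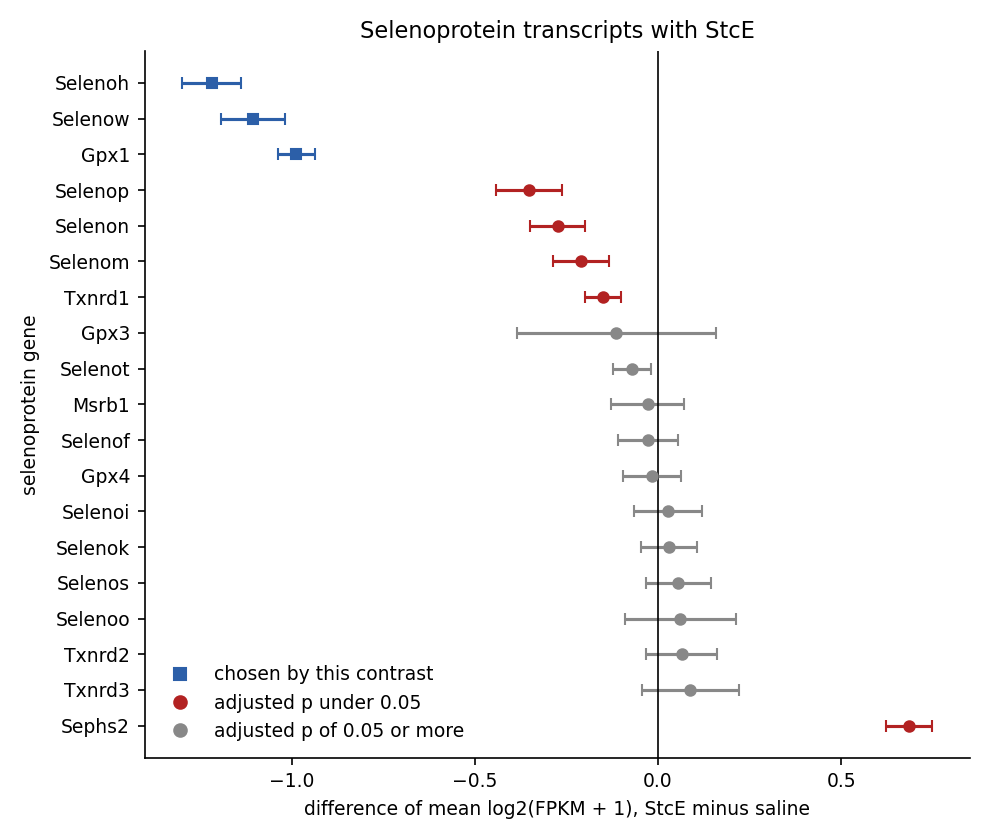
Difference of mean log2(FPKM + 1), StcE minus saline, of the 19 selenoprotein genes tested, with limma's 95% interval for each gene. Blue squares are the 3 genes chosen by this contrast (-1.22 to -0.99), red points are other genes past the threshold, and grey points are genes that did not pass; *Sephs2* at 0.68 is the single red point above 0.

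The place of the UGA codon relates to nonsense-mediated decay, for which a stop codon some distance upstream of the last exon junction is the usual condition. A limit of 55 bases was used. All 3 members were over it, and so were 14 of the 24 selenoprotein genes. Of the 16 other genes tested, 8 were over the limit, and 3 of these (*Selenom*, *Selenon* and *Selenop*) decreased while 0 increased (0 also at an unadjusted p under 0.05 and 0 by limma voom), with a median log2 difference of -0.09. The 8 others had a median of 0.04, with 1 decrease (*Txnrd1*) and 1 increase (*Sephs2*, which has a single exon). Of all genes tested, 6.41% were lower and 5.52% higher, and with 8 genes on each side these counts are a description. Among the 8 over the limit, *Txnrd2* has its UGA at codon 526 of 527. The regular stop codon of *Txnrd2* thus lies close behind the UGA and upstream of the last junction as well.

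The members were not the genes with the most distant UGA. In 3 of the other genes tested the UGA was further from the last junction than in any member. The distance was 342 bases in *Gpx4*, 357 bases in *Selenop* and 470 bases in *Selenot*, and their log2 differences were -0.02, -0.35 and -0.07. Of *Selenop*, which has 10 in-frame UGA codons, the first was used. The genes are not independent replicates, and the 2 groups of genes were not tested against each other.

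**Figure D5:**
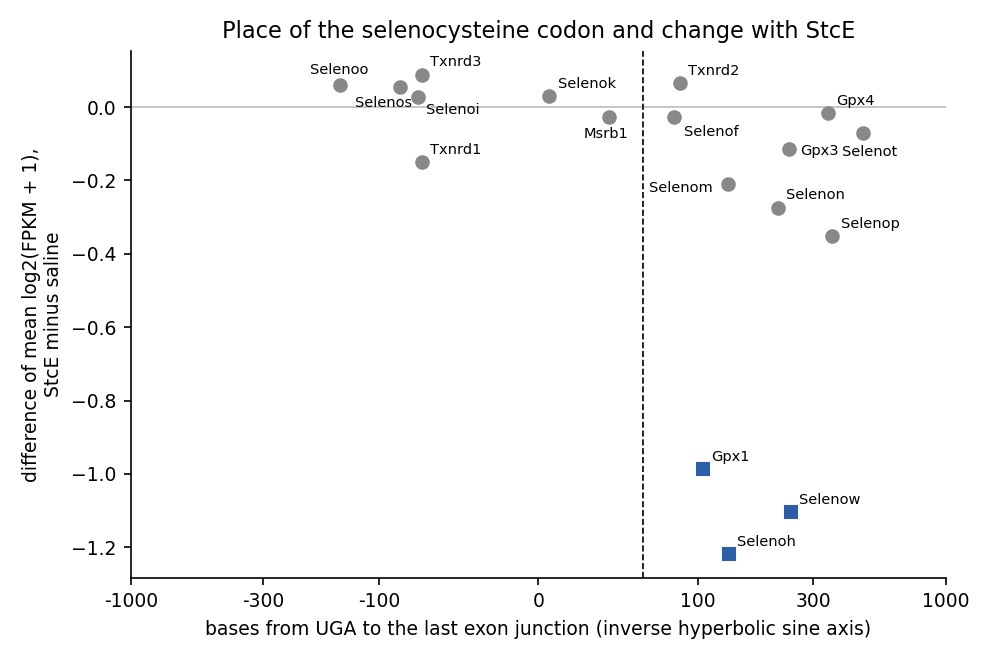
Bases from the UGA codon to the last exon junction (positive: UGA upstream of the junction; axis scaled by the inverse hyperbolic sine) against the difference of mean log2(FPKM + 1), StcE minus saline, for the 18 tested selenoprotein genes whose transcript has a junction. The dashed line marks 55 bases; the members (blue squares) lie to its right at -1.22 to -0.99, where *Gpx4* at -0.02 also lies.

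The list of genes that make and decode selenocysteine left out *Sephs2*, which was counted above with the selenoproteins and increased (log2 difference 0.68). The rest of this machinery showed few differences. Of 14 genes tested, 1 was lower and 0 were higher by limma, against 6.41% lower and 5.52% higher of all genes tested. At an unadjusted p under 0.05, 1 was higher, and 0 were higher by limma voom. The median log2 difference was 0.01. *Secisbp2*, which binds the SECIS element, had 0.08 (limma adjusted p = 0.121), and *Eefsec*, the elongation factor for selenocysteine, had -0.03 (limma adjusted p = 0.667). *Sepsecs*, which completes selenocysteine on its tRNA, had 0.01. The 1 lower gene was *Rpl30*, a ribosomal protein that can bind the SECIS element. It had 14.6 ± 1.93 and 10.9 ± 1.99 FPKM (SD, n = 5 each, log2 difference -0.40, limma adjusted p = 0.0379), and the groups overlapped. This call was lost when any one of saline replicates 2, 3, 4 and 5 or StcE replicates 1, 2 and 3 was left out (adjusted p up to 0.0926). Copies of *Rpl30* elsewhere in the genome could share its reads, which was not tested, and its value is uncertain.

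Of 6 genes for selenium uptake and recycling, 3 were abundant enough to be tested. *Lrp8*, the receptor that takes up the selenium carrier in brain and testis, increased from 7.71 ± 0.546 to 9.83 ± 0.504 FPKM (SD, n = 5 each), a log2 difference of 0.32 (SE 0.046, limma adjusted p = 0.00158). Its groups did not overlap, with 8.32 FPKM as the highest saline value and 9.31 FPKM as the lowest with StcE. *Scly*, which releases selenium from selenocysteine, had -0.08 (limma adjusted p = 0.188), and *Lrp1* had -0.03. None of the 3 was lower (0 at an unadjusted p under 0.05 and 0 by limma voom), and 1, *Lrp8*, was higher. Of all genes tested, 6.41% were lower and 5.52% higher, and with 3 genes nothing is read from these counts. The *Lrp2*, *Slc7a11* and *Selenbp1* transcripts were under the minimum.

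None of the 15 factors of nonsense-mediated decay tested passed the threshold in either direction (limma, 0 at an unadjusted p under 0.05, and 0 by limma voom), and their differences ranged from -0.08 to 0.09 on the log2 scale. Of 8 transcripts known as substrates of that pathway, 4 increased and 1 decreased, against 5.52% and 6.41% of all genes tested, with a median difference of 0.19. The host transcripts of small nucleolar RNAs *Gas5* (0.31, limma adjusted p = 0.00887), *Snhg1* (0.26, limma adjusted p = 0.0201) and *Zfas1* (0.20, limma adjusted p = 0.00901) were higher. So was *Atf4*, a transcription factor of the integrated stress response, from 64.8 ± 1.54 to 77.1 ± 2.72 FPKM (SD, n = 5 each, log2 difference 0.25, limma adjusted p = 0.000238). *Gadd45a* was lower, at -0.23 (limma adjusted p = 0.0399). The call of *Gadd45a* was lost without any one of saline replicates 1, 2, 3 and 4 or StcE replicates 2, 3, 5 and 6 (adjusted p up to 0.0960), and that of *Snhg1* without saline replicate 1 (adjusted p = 0.0523).

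Enzymes that share the members' fold or their substrate without selenium were also measured. *Gpx8*, a glutathione peroxidase of the endoplasmic reticulum with cysteine in place of selenocysteine, increased from 28.6 ± 2.26 to 35.4 ± 2.35 FPKM (SD, n = 5 each, log2 difference 0.30, limma adjusted p = 0.00626). *Mien1*, a relative of *Selenow*, had 0.16 (limma adjusted p = 0.206). *Gpx6* and *Gpx7* were under the minimum. Catalase (*Cat*) and the peroxiredoxins *Prdx1* to *Prdx6* are 7 peroxide-removing enzymes that need no selenium. Of these 7, 0 passed in either direction by limma, against 6.41% lower and 5.52% higher of all genes tested. With 7 genes nothing is read from this count. At an unadjusted p under 0.05, 1 of the 7 was lower and 0 were higher, and limma voom called 0. Their log2 differences lay between -0.07 and 0.00009.

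The nearest tested genes on either side of the members differed by at most 0.11 in size on the log2 scale. *Rhoa* (log2 difference 0.01) lies 968 bases and *Usp4* 7509 bases from *Gpx1*, and *Usp4* decreased (log2 difference -0.11, limma adjusted p = 0.0131). *Tmx2*, 545 bases from *Selenoh*, had 0.003 and *Ctnnd1*, on its other side, -0.11 (limma adjusted p = 0.125). On either side of *Selenow*, *Nop53* at 13780 bases had -0.05 and *Lig1* had -0.07, and neither passed. *Lig1* lies 2605774 bases away, the closest tested gene on that side. No other gene held a copy of a member's transcript at 95% identity or more over at least 150 bases, and no exon of another gene overlapped theirs.

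Motifs were searched on both strands in the 250 bases before each start site of 32851 RefSeq promoters (GRCm38.p6). These start sites differ from the ends of the gene intervals given above, and the windows of all 3 members reach into those intervals. *Selenoh* held GGGCGG, found in 32.7% of all promoters, CCAAT, found in 33.8%, and CACGTG, found in 6.02%. *Gpx1* and *Selenow* held none of these 3. None of the members held TGACNNNGC (10.2% of promoters) or TGCGCNC (12.5%). No motif of the 5 searched was thus common to the members in this window.

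Over the 10 samples, the 5 non-member genes with the profile most like the members' mean, by the root mean square distance of log2(FPKM + 1) centred on the saline mean, were *Abca1* (0.305), *Col8a1* (0.415), *Efnb2* (0.418), *Cyp1b1* (0.420) and *Fam107a* (0.456). The members' own distances from their mean profile were 0.0862 for *Gpx1*, 0.0423 for *Selenow* and 0.0898 for *Selenoh*. Each member is part of that mean and was chosen on this contrast. Its distance is therefore small by construction and cannot be compared with those of the 5 other genes. *Abca1*, the cholesterol exporter, had 4.03 FPKM with saline and 1.98 FPKM with StcE on average, and the other 4 genes had log2 differences of -0.53 to -0.47. The likeness was ranked over 11059 genes and is driven by the difference between the groups.

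Markers of the endothelium were abundant, with a summed level over 10 genes of 1775 to 1927 FPKM with saline and 1688 to 1786 FPKM with StcE. Of these 10 genes, 5 decreased by limma (*Tie1*, *Flt1*, *Tek*, *Pecam1* and *Esam*) and 0 increased (0 at an unadjusted p under 0.05 and 0 by limma voom). Of all genes tested, 6.41% were lower and 5.52% higher. The median of the 10 markers was -0.11, and the lowest value was -0.24 for *Tek*. The call of *Esam* was lost without any one of the 10 samples (adjusted p up to 0.0970), and that of *Pecam1* without any one of saline replicates 1, 2, 3 and 4 or StcE replicates 1, 3, 5 and 6 (adjusted p up to 0.101). Of the markers of other brain cells, the 4 astrocyte genes summed to at most 0.115 FPKM and the 4 genes of microglia and leukocytes to at most 0.109 FPKM in any sample. The pericyte and smooth muscle genes summed to 2.09 to 5.12 FPKM with saline and 2.68 to 4.54 FPKM with StcE, nearly all of it *Acta2*. The neuron genes summed to 1.91 to 2.73 and 2.52 to 3.23 FPKM, nearly all of it *Tubb3*, which increased from 2.18 to 2.88 FPKM (log2 difference 0.29, limma adjusted p = 0.0227). That call was lost without saline replicate 1 or saline replicate 4 (adjusted p up to 0.0565). *Rgs5* and *P2ry12* were not analysed here, none of the other markers was at 0 in every sample, and the part of these shifts in the members' values was not tested.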

How the data were processed

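Poly-adenylated RNA of 10 samples was made into directional dUTP libraries. Per the labels and methods, the authors aligned trimmed read pairs to GRCm38 (mm10), and the submitters' processing notes name HISAT2 2.0.5, featureCounts 1.5.0-p3 and DESeq2 1.32.0. The annotation release and the strand setting of the counting are not given in the sources used here. The deposited values are FPKM per sample for 27024 named rows, beside 22874 empty rows. With exon lengths from GENCODE vM21, 96.6% of the values above 0 came out as whole fragments (tolerance 0.05, 26704 genes matched by name), and the authors' scale followed the median-of-ratios size factor, not the total. Genes with a mean of at least 1 FPKM (11062) entered limma 3.58.1 (R 4.3.3) as log2(FPKM + 1), with condition alone in the model, a trended eBayes, Benjamini-Hochberg adjustment and a threshold of 0.05, and the fit was tested on simulated data. Limma voom was run on 10440 genes whose fragments were whole. Single values were tested by exact permutation (scipy 1.17.1). Copies were sought with BLAST 2.17.0.

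The members and all lists were chosen with earlier results of these data known. The lists were selenoproteins, selenocysteine synthesis and decoding, selenium uptake and recycling, factors and substrates of nonsense-mediated decay, relatives without selenocysteine, peroxide removal, and cell type markers. Named were the members, the other selenoproteins of at least 1 FPKM, genes of the synthesis, uptake and decay lists past the threshold, the nearest tested genes, and the 5 most alike profiles. Other list genes are named with their values known. The alternatives were another pseudocount, filter, scaling, variance model and test, a replicate block, and each sample left out. No label gives a batch.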

Additional observations from a re-analysis of the deposited data

Results flagged for a closer look

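In groups of 5 samples, a sample was marked when its gap to the nearest other sample exceeded 0.71 of the group's range, which chance gives in about 5% of groups. Of 54 groups examined (members, other selenoproteins, genes of the lists past the threshold and the summed level), 2 held such a sample, and none was a member's. *Selenom* was 27.8 FPKM in StcE replicate 6, with the other StcE samples at 30.8 to 31.7 FPKM. *Selenoi* was 4.15 FPKM in StcE replicate 1, with the others at 4.59 to 4.64 FPKM.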

How the results depend on the processing

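The log2 differences of *Gpx1*, *Selenow* and *Selenoh* moved by less than 1 SD in all 42 refits (another pseudocount, scaling by total fragments, limma voom, replicate block, each sample left out), with ranges over left-out samples of -0.996 to -0.977, -1.125 to -1.073 and -1.239 to -1.187. Over the 25 named non-member genes past the threshold, 378 of 449 refits kept direction and call, 71 kept direction alone and 0 reversed. Same-numbered samples did not deviate together (correlations of at most 0.0966 in size), so the replicate block over 8 samples pairs numbers only. It called 162 genes lower and 187 higher, against 709 and 611, and without the block those 8 samples gave 452 and 433. With the block, decoding genes lower went from 1 to 0, decay genes lower from 1 to 0, decay genes higher from 4 to 1 and other selenoproteins lower from 4 to 3. The calls lost there, beside *Rpl30*, *Gadd45a*, *Esam*, *Pecam1* and *Tubb3*, were those of *Txnrd1* (adjusted p = 0.0583), *Gpx8* (0.0741), *Gas5* (0.0975), *Snhg1* (0.177), *Zfas1* (0.0884), *Tie1* (0.0733), *Flt1* (0.0679), *Tek* (0.0795) and *Usp4* (0.166). Without a filter, *Snhg1* and *Tubb3* were also lost. The 8 samples without the block also lost *Snhg1*, *Tubb3* and *Usp4*. A minimum of 0.1 FPKM, no filter and the 8 samples without the block also gave 0 lower decoding and 0 lower decay genes, and leaving out a sample gave 0 to 1 for each. Fewer samples or more genes tested enter these fits by construction. Over all genes, no filter gave 409 lower and 392 higher, leaving out saline replicate 1 gave 428 lower, and leaving out StcE replicate 3 gave 409 lower and 384 higher. The difference of the other selenoproteins' sum was -16.8 to -7.12 FPKM without 1 sample, -8.75 scaled by total fragments and -11.2 with the block. The correlation of *Gpx1* and *Selenow* ranged from -0.095 to 0.667 when a sample was left out, and was -0.095, reversed in sign, without StcE replicate 2, and the cause was not tested. Chosen after seeing the data were voom for the members, the block for the sum, and the fit of those 8 samples with no block. Floors of 3 fragments correspond to 0.0857 to 0.131 FPKM for a gene of 1 kb, far under the members' levels.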
